A study of Saccharomyces cerevisiae with 19 samples.

Results

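The phosphate acquisition genes of Saccharomyces cerevisiae described here are 9 of the 5758 genes with reads in the series, chosen by name from the gene column of the count tables. They were PHO5, PHO3, PHO11 and PHO12 (acid phosphatases), PHO84 and PHO89 (phosphate transporters), SPL2 (a regulator of transport), VTC3 (a polyphosphate synthesis subunit) and PHO4 (the transcription factor of the pathway). All 9 passed the filter on low counts in each of the 10 comparisons, though PHO11 and PHO12 did so in some only through the groups where they were higher, as given below. The samples were wild-type cells of the BY4741 background, a MATa laboratory strain in which the marker genes HIS3 (in part), LEU2, MET17 and URA3 have been removed. They grew in YPD, a rich medium, with cycloheximide, an inhibitor of translation elongation, added for 1 min. The labels give all groups the same genotype and medium, and set them apart by the assay and the name of the library preparation. Ribosome profiling, which sequences the mRNA fragments that ribosomes protect from RNase (footprints), gave 13 libraries. DualLigation had 3 of them, and Nonrandom, 4N, 4+3N, 4+3N low and Nonrandom low had 2 apiece. For mRNA-seq there were 6, again 2 apiece for Nonrandom, 4N and 4+3N. The study set randomized against non-randomized linkers and reverse transcription primers, but the labels do not give the oligonucleotides behind each name, what low means, or how DualLigation was handled, and each sample carries the same protocol text. No label says that replicates were separate cultures, so the p-values below measure only the spread between these samples.

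Budding yeast takes up inorganic phosphate through low-affinity and high-affinity transporters and frees phosphate from organic molecules outside the cell with secreted acid phosphatases. When phosphate is plentiful, the cyclin and kinase pair Pho80 and Pho85 phosphorylates the transcription factor Pho4 and keeps it out of the nucleus. When phosphate runs short, the inhibitor Pho81 blocks that kinase, and Pho4 acts with Pho2 to turn on PHO5, PHO11, PHO12, PHO84, PHO89, SPL2 and the VTC genes. PHO3 is the exception among the phosphatases, being expressed constitutively and repressed by thiamine rather than by phosphate.

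PHO5 (YBR093C) and PHO3 (YBR092C) lie next to each other on chromosome II, from 429548 to 430951 and from 427698 to 429101 in the R64 annotation of RefSeq. PHO11 (YAR071W) lies on chromosome I from 225460 to 226863 and PHO12 (YHR215W) on chromosome VIII from 552099 to 553502, both near chromosome ends. The coding length of each of these 4 phosphatase genes is 1404 bases. PHO84 (YML123C) is on chromosome XIII, PHO89 (YBR296C) on II, PHO4 (YFR034C) on VI, SPL2 (YHR136C) on VIII and VTC3 (YPL019C) on XVI. PHO11 and PHO12 are near-identical, and how reads that fit both were counted is not given in the sources used here. The split of reads between them is therefore uncertain, and their sum is given beside each.

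Library totals ran from 6735945 to 13478946 counted reads in the standard and DualLigation profiling libraries, from 827353 to 2667016 in the low libraries and from 1838817 to 3497303 in mRNA-seq. The 9 genes together held 0.344% to 0.360% of reads in the Nonrandom, 4N and 4+3N profiling libraries and 0.402% to 0.422% in mRNA-seq. They held 0.328% to 0.348% in the low libraries and 0.0915% to 0.135% in DualLigation. A count of 0 allows up to 3 reads, which is 0.223 to 0.445 CPM (a gene's counts per 1000000 counted reads of its library) in DualLigation and 1.12 to 3.63 CPM in the low libraries. Such limits and the intervals below cover counting error only. Of the mating-type markers, STE2, the receptor of a cells, had 123 to 797 CPM over the libraries. The other a-cell genes were BAR1 (127 to 352 CPM), MFA2 (13.2 to 312), AGA2 (15.7 to 96.0), MFA1 (1.47 to 248) and ASG7 (2.60 to 27.8), each lowest in DualLigation. ASG7 had 15.4 to 22.7 CPM in mRNA-seq. The alpha-cell genes MF(ALPHA)1, MF(ALPHA)2, STE3 and SAG1 had at most 4.83 CPM in any footprint library, but in mRNA-seq SAG1 had 34.8 to 51.9 CPM, MF(ALPHA)2 5.67 to 11.6, STE3 5.30 to 7.61 and MF(ALPHA)1 0 to 0.436 CPM. LEU2 held 1 read, in profiling 4+3N replicate 2, and none elsewhere, URA3 and MET17 were listed in no library, and HIS3, deleted only in part in this strain, had 58.3 to 123 CPM.

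PHO84, the high-affinity proton and phosphate symporter of the plasma membrane, had the highest level of the 9 genes in both assays. Per kilobase of coding length its footprint level was 1190 ± 32.7 CPM/kb (SD, 6 libraries of Nonrandom, 4N and 4+3N), rank 153 of 5754 genes. Its mRNA level was 1170 ± 40.9 CPM/kb (SD, 6 libraries), rank 145. The median gene stood at 28.6 CPM/kb in footprints and 45.2 CPM/kb in mRNA, so PHO84 was among the most abundant messages of these cells in rich medium. In these bulk cultures, the share of expressing cells and the RNA per cell cannot be told apart. VTC3 followed, at 371 ± 10.8 CPM/kb in footprints (rank 451) and 469 ± 29.0 CPM/kb in mRNA (rank 344).

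The order of footprint levels per kilobase below these was SPL2 (221 ± 13.2 CPM/kb), PHO3 (144 ± 13.1), PHO4 (78.0 ± 6.55), PHO5 (62.2 ± 3.20), PHO89 (23.1 ± 1.27), PHO12 (5.89 ± 1.83) and PHO11 (1.43 ± 0.638, SD, n = 6 libraries each). The ranges of neighbours in that order did not overlap. In mRNA the order per kilobase was PHO84, VTC3, PHO3 (249 ± 9.10 CPM/kb), SPL2 (189 ± 9.31), PHO5 (151 ± 6.95), PHO4 (107 ± 12.3), PHO12 (34.0 ± 3.46), PHO89 (25.9 ± 1.90) and PHO11 (7.68 ± 1.78), again with no overlap between neighbours. PHO89, the sodium and phosphate cotransporter, thus lay below the median gene in both assays. By rank it stood higher as footprints (3194 of 5754) than as mRNA (4097). The repressible phosphatases PHO5 and PHO12 ranked higher as mRNA (976 and 3510) than as footprints (1816 and 4744), and PHO11 did not (5269 as mRNA, 5169 as footprints). The level ranges of the 2 transporters were far apart in each assay. In DualLigation 4 pairs of neighbours overlapped. PHO84 (271 ± 61.6 CPM/kb) and PHO4 (262 ± 46.5) could not be separated, nor VTC3 (102 ± 48.0) and SPL2 (89.9 ± 18.6), nor SPL2 and PHO3 (65.2 ± 21.9), nor PHO5 (9.75 ± 6.01) and PHO89 (7.18 ± 3.19, SD, n = 3 each).

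**Figure D1:**
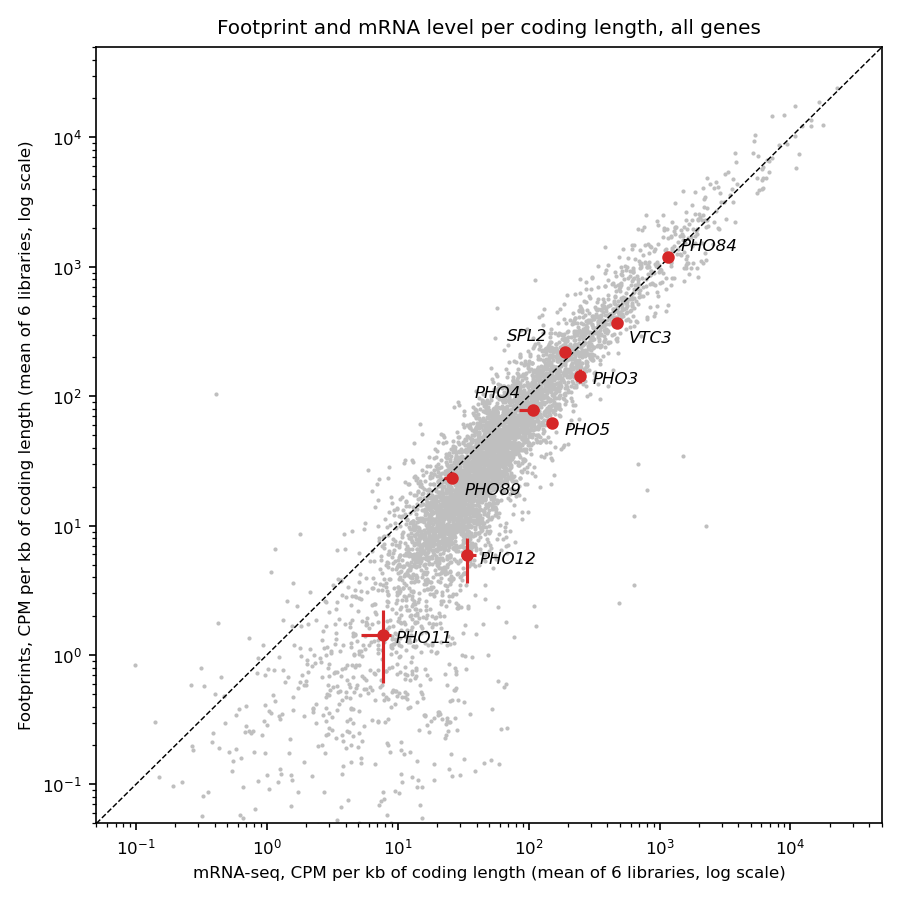
Footprint level (vertical axis) against mRNA level (horizontal axis), both in CPM per kilobase of coding length on log scales, each the mean of 6 libraries of Nonrandom, 4N and 4+3N. Grey points are the other genes, red points the 9 phosphate genes with bars from the lowest to the highest library, and the dashed line marks equal values. PHO84 lies at the top near the line (1190 and 1170 CPM/kb), and PHO12 and PHO11 lie farthest below it.

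The ratio of footprints to mRNA, often read as translational efficiency, was compared next. On the TMM scale the 4 phosphatases lay below 0 and PHO84, PHO89, SPL2 and VTC3 above it, of which PHO89 and VTC3 turned, and PHO84 no longer passed, with library totals. In the edgeR quasi-likelihood fit of the 12 Nonrandom, 4N and 4+3N libraries of both assays, 84.7% of the 5523 genes tested had a ratio that differed from 0 on the log2 scale at an adjusted p under 0.05 (40.2% above and 44.5% below). Of the 9 genes 4 were above, 4 below and 1, PHO4, did not pass, so that a call by itself says little here. Each ratio is therefore also given as its percentile among all genes. TMM is a composition scaling that sets the bulk of genes near 0 (median ratio −0.04). Scaled by library totals alone, the median was −0.59, a shift of 0.55 for all genes, and the calls moved from 2221 above and 2456 below to 956 above and 3854 below. Directions close to 0 depend on that choice.

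PHO84 footprints stood at 2126 and 2166 CPM for Nonrandom, 2075 and 2138 CPM for 4N, then 2003 and 2090 CPM for 4+3N. Its mRNA stood at 2176 and 2133 CPM for Nonrandom, 2041 and 2002 CPM for 4N, then 2030 and 2007 CPM for 4+3N. The assays overlapped in CPM, and the footprint level divided by the mRNA level was 0.996, 1.04 and 1.01 in the 3 preparations. On the TMM scale the log2 ratio was 0.57 (SE 0.04, edgeR adjusted p = 3.92e-10), the 77.1th percentile of all genes, while with library totals it was 0.02 and did not pass (adjusted p = 0.556).

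PHO89 stood lower in level but similar in ratio. Its footprints lay between 36.9 and 42.1 CPM (median 40.0) and its mRNA between 39.2 and 47.2 CPM (median 46.0), with overlapping ranges. The log2 ratio was 0.39 (SE 0.07, edgeR adjusted p = 2.02e-05), the 69.8th percentile, and turned to −0.16 (adjusted p = 0.0405) with library totals. Both transporters were thus above the median gene, which the choice of scale does not alter.

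SPL2 encodes a small protein that down-regulates the low-affinity transporters when phosphate is short. Its footprints reached 102 and 108 CPM (Nonrandom), 94.4 and 101 CPM (4N) or 92.7 and 95.2 CPM (4+3N), against mRNA of 80.7 and 78.3, 88.4 and 87.6, and 87.7 and 84.6 CPM. Every footprint library was above every mRNA library. The log2 ratio was 0.78 (SE 0.05, edgeR adjusted p = 4.67e-11), the highest of the 9 and the 84.5th percentile, and was still above 0 with library totals (0.23, adjusted p = 0.00143). No other member was above 0 past the threshold with library totals.

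VTC3, a subunit of the vacuolar transporter chaperone complex that makes polyphosphate, had footprints of 906 to 980 CPM (median 926) and mRNA of 1081 to 1283 CPM (median 1180). The groups did not overlap in CPM, with mRNA the higher. On the TMM scale its log2 ratio was 0.21 (SE 0.05, edgeR adjusted p = 0.00150), the 62.2th percentile, and turned to −0.34 (adjusted p = 1.16e-06) with library totals. Taken within 1 preparation, VTC3 passed in 4N (0.23, adjusted p = 0.0368) and did not in Nonrandom (0.19, adjusted p = 0.0742) or 4+3N (0.21, adjusted p = 0.0509). The value itself was alike in all 3.

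PHO4 had footprints of 66.8 to 79.6 CPM (median 73.5) and mRNA of 79.5 to 113 CPM (median 103). The ranges met at their edge, PHO4 mRNA in Nonrandom replicate 2 being the low one. Its log2 ratio, 0.10 (SE 0.08, edgeR adjusted p = 0.228, 56.8th percentile), did not pass, and with library totals it was −0.45 (adjusted p = 1.23e-05). The transcription factor of the pathway was therefore close to the median gene in ratio.

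PHO5, the main secreted acid phosphatase, had footprints of 80.8 and 89.7 CPM (Nonrandom), 85.7 and 89.3 CPM (4N) or 84.7 and 93.6 CPM (4+3N). Its mRNA was 219 and 200, 203 and 226, and 213 and 212 CPM. The lowest mRNA library was above every footprint library by a wide margin. The log2 ratio was −0.73 (SE 0.05, edgeR adjusted p = 1.53e-10), at the 24.99th percentile, and −1.28 with library totals.

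PHO3 had footprints of 178 to 228 CPM (median 204) and mRNA of 329 to 367 CPM (median 349), also without overlap. Its log2 ratio of −0.24 (SE 0.04, edgeR adjusted p = 4.70e-05, 41.6th percentile) was milder than that of its neighbour PHO5. Within a preparation it passed in Nonrandom (−0.45, adjusted p = 3.26e-05) and not in 4N (−0.16, adjusted p = 0.0676) or 4+3N (−0.12, adjusted p = 0.167), and with library totals it was −0.79. PHO5 took 29.2% to 32.4% of the reads of the pair in the footprint libraries and 36.3% to 40.7% in mRNA, so the 2 assays did not overlap in that share either.

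PHO12 and PHO11 had the lowest ratios of the 9. PHO12 footprints reached 5.06 and 5.23 CPM (Nonrandom), 9.74 and 8.67 CPM (4N) or 11.3 and 9.64 CPM (4+3N), against mRNA of 42.8 and 43.5, 46.9 and 46.2, and 51.6 and 55.3 CPM. PHO11 footprints were 0.858 and 1.48, 3.12 and 1.75, and 3.04 and 1.82 CPM, against mRNA of 7.42 and 7.72, 12.1 and 12.5, and 12.5 and 12.4 CPM. Neither gene's footprints overlapped its mRNA. The log2 ratio was −2.04 for PHO12 (SE 0.09, edgeR adjusted p = 6.78e-14, 8.51th percentile) and −1.92 for PHO11 (SE 0.20, adjusted p = 4.48e-08, 9.11th percentile). Summed to 1 feature, the pair had a ratio of −2.02 (adjusted p = 1.20e-13), and PHO11 held 19.6% of the pair's footprint reads (exact 95% interval 16.4% to 23.1%) and 18.2% of its mRNA reads (15.8% to 20.9%). Both lay lower in ratio than PHO5 and PHO3, by more than the standard errors.

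The values of 4 other genes with a copy stand here because PHO11 and PHO12 are also such a pair. They were chosen after their values were seen. TEF1 and TEF2, which encode the same elongation factor, had log2 ratios of −1.69 and −2.09 in the standard libraries, and EFT1 and EFT2, which also encode 1 protein, −1.46 and −1.68. In the low libraries the same 4 genes had ratios of 3.60, 3.24, 3.70 and 3.52. PHO12 stood at −2.73 there (SE 0.24, edgeR adjusted p = 3.89e-17). PHO11 stood at −2.46 (SE 0.49), from 0 to 3 reads in each low library. It passed the filter on low counts in this fit only through mRNA-seq, so its p-value is not given. Without Nonrandom low replicate 2 PHO12 was at −3.64 and without Nonrandom low replicate 1 at −2.49. The copies stand as values only, and other genes with copies are not given here. The part of shared reads in the PHO11 and PHO12 ratios was not tested.

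**Figure D2:**
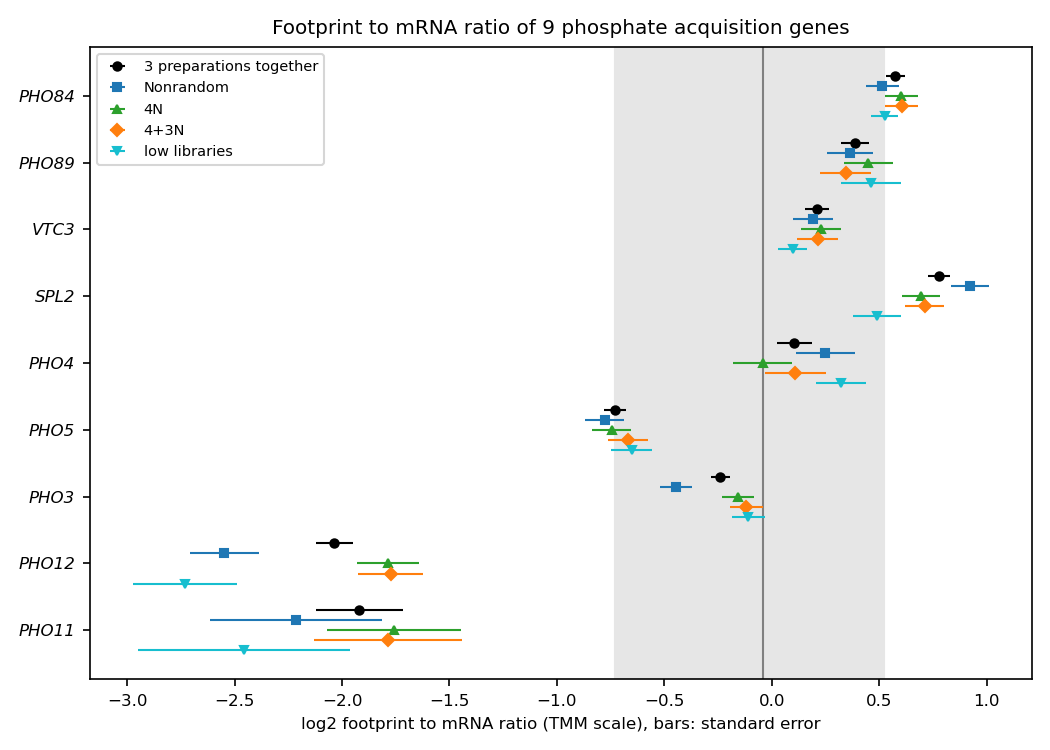
Log2 footprint to mRNA ratio (horizontal axis, TMM scale, bars are standard errors) of the 9 genes in the 3 preparations together, in Nonrandom, 4N and 4+3N alone and in the low libraries. The grey band spans the middle of all genes, from the lower to the upper quartile (−0.73 to 0.52), and the grey line is their median. PHO84, PHO89 and SPL2 lie to the right in all 5 sets on this scale (with library totals PHO89 turns, as do PHO84 and SPL2 in the low libraries), and PHO12 and PHO11 lie far to the left.

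The ratio was compared between preparations by an interaction term in the same 12-library fit. None of the 9 passed in 4N and 4+3N against Nonrandom, where 0.0543% of all genes did, with 2 of the 9 at an unadjusted p under 0.05 and none by DESeq2. PHO12 had the largest difference, 0.77 (SE 0.19, edgeR adjusted p = 0.869), and PHO3 stood at 0.31 (SE 0.09, adjusted p = 0.995). Divided by its mRNA level, the footprint level of PHO12 came to 0.119 for Nonrandom, 0.198 for 4N and 0.196 for 4+3N. The other 7 lay between −0.22 and 0.44.

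With the low libraries of Nonrandom and 4+3N set against the mRNA of the same preparations, 74.5% of the 5385 genes tested differed from 0 on the log2 ratio scale (34.3% above and 40.2% below). Of the 9 genes 4 were above 0, 3 below and 2 not past the threshold. PHO11 is among the 3 below, but it passed the filter on low counts only through mRNA-seq, and its call is not read as a result. PHO84 was at 0.52 (SE 0.06), PHO89 at 0.46 (SE 0.14), SPL2 at 0.49 (SE 0.11) and PHO4 at 0.32 (SE 0.12, edgeR adjusted p = 0.0100). With library totals, which moved all genes by 0.59 and the calls from 1846 above and 2165 below to 730 and 3669, each of these 4 turned, to −0.07, −0.13, −0.10 and −0.27. PHO5 stood at −0.65 (SE 0.10, adjusted p = 5.52e-09), close to its standard value. PHO3 (−0.11, adjusted p = 0.190) and VTC3 (0.10, adjusted p = 0.194) did not pass. The PHO4 call was lost without Nonrandom low replicate 1 (0.21), 4+3N low replicate 2 (0.15) or mRNA-seq Nonrandom replicate 2 (0.24), PHO11 moved to −5.03 without 4+3N low replicate 2, which leaves that group at 0 reads, and VTC3 passed without mRNA-seq Nonrandom replicate 2 (0.17, adjusted p = 0.0250). The 2 fits hold the same mRNA libraries of Nonrandom and 4+3N, so their values are set side by side and not tested against each other.

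**Figure D3:**
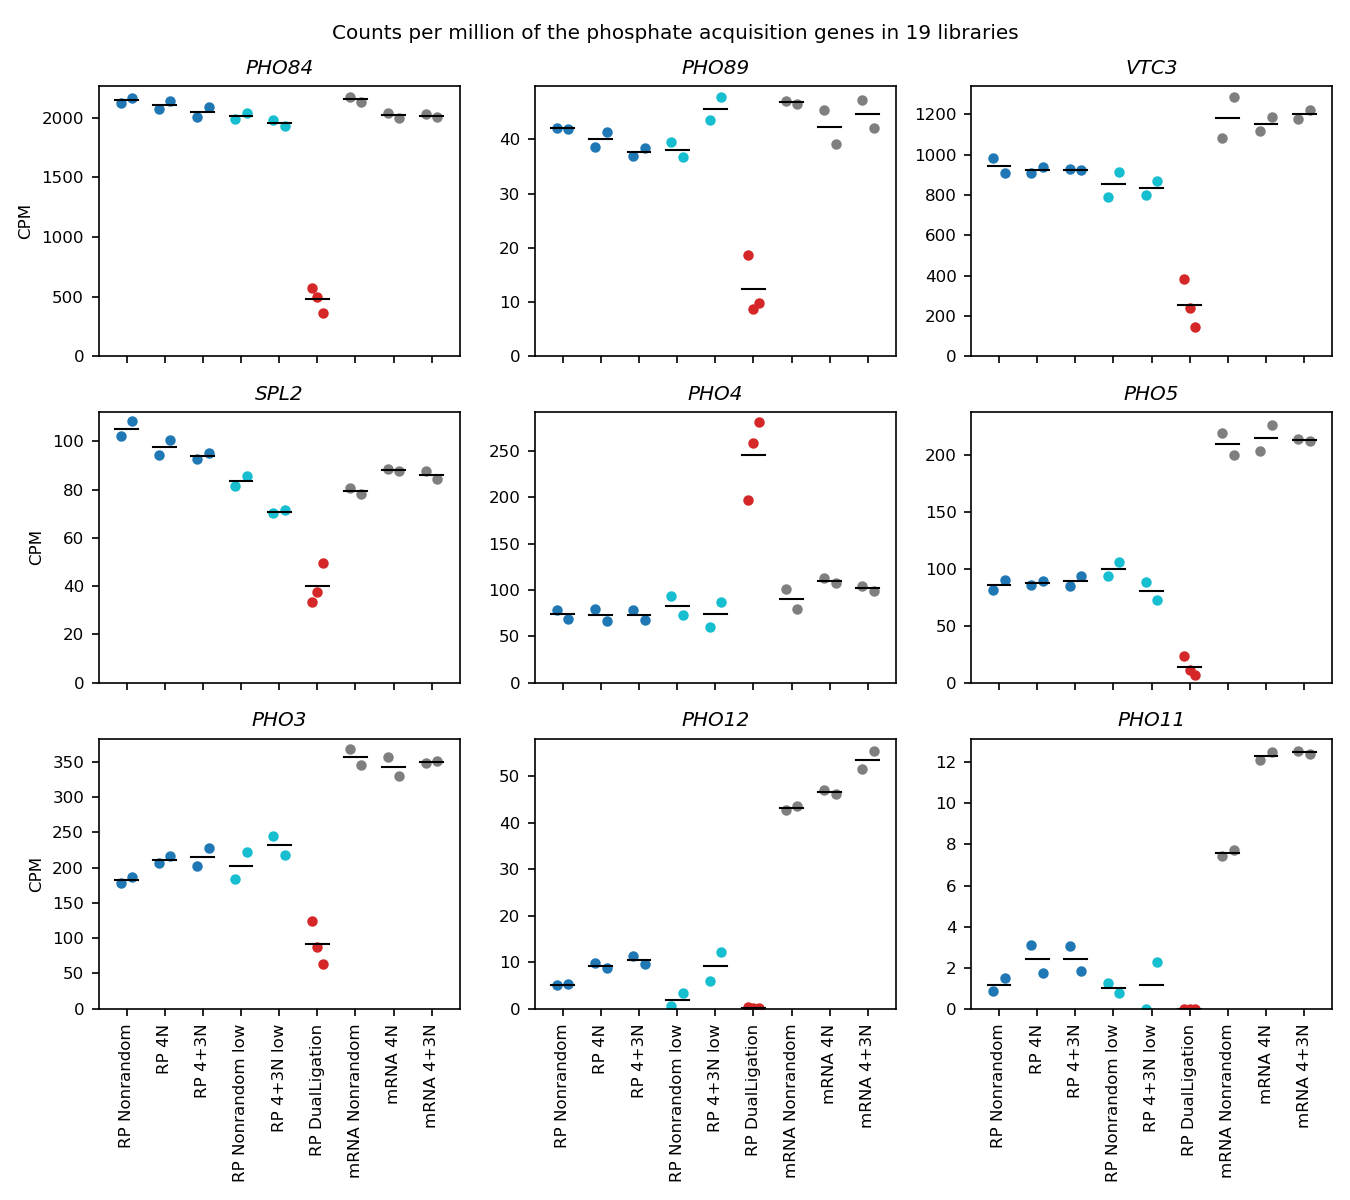
CPM (vertical axis, linear, from 0, a separate scale for each gene) of the 9 genes in all 19 libraries. Each point is 1 library and each short line the group mean, with standard profiling in dark blue, low in light blue, DualLigation in red and mRNA-seq in grey. By group mean DualLigation lies below the other profiling groups for 8 genes and above them for PHO4, at 197 to 281 CPM against 60.4 to 93.1 CPM.

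The preparations named for random bases were set against Nonrandom. With 4N and 4+3N set against Nonrandom (6 libraries, TMM scale), 0.190% of 5261 genes passed in edgeR (7.55% with the replicate block, described below), and of the 9 none did without the block, with 3 at an unadjusted p under 0.05 and 1, PHO12, by DESeq2. PHO12 had 5.06 and 5.23 CPM in Nonrandom against 8.67 to 11.3 in the 4 randomized libraries, with no overlap. Its log2 fold change was 0.95 (SE 0.16, edgeR adjusted p = 0.0832), at the 99.7th percentile of all genes. It passed in DESeq2 (0.96, adjusted p = 0.0405) and without 4+3N replicate 2 (1.03, adjusted p = 0.0363).

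PHO3 footprints in Nonrandom, 178 and 187 CPM, also lay below the randomized libraries, 202 to 228 CPM, with a log2 fold change of 0.25 (SE 0.06, adjusted p = 0.304). Same-numbered libraries of these groups deviated together. The numbers are those of the titles, and for a randomized library another label gives a different number. A block with that other number was not tested. With the replicate number of the titles as a block both genes rose. PHO12 was then at 0.97 (SE 0.15, edgeR adjusted p = 0.000332) and PHO3 at 0.25 (SE 0.04, adjusted p = 0.000376), where 4.75% of all genes rose and 2.79% fell (7.55% in all). PHO11, at 0.858 and 1.48 CPM in Nonrandom against 1.75 to 3.12 CPM, had a log2 fold change of 1.12 (SE 0.41, edgeR adjusted p = 0.587), and the block gave 1.16 (edgeR adjusted p = 0.0514).

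The other 6 genes moved little. PHO84 was at −0.02 (SE 0.06), VTC3 at −0.01 (SE 0.07), PHO4 at 0.01 (SE 0.12), PHO5 at 0.08 (SE 0.07), PHO89 at −0.09 (SE 0.07) and SPL2 at −0.11 (SE 0.06). The adjacent genes PHO5 and PHO3, with equal coding length, thus had different calls under the block, where PHO3 passed and PHO5 did not, and the difference between the 2 genes was not tested.

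The copies named above rose in the same comparison, by 2.44 (TEF1), 2.58 (TEF2), 2.44 (EFT1) and 2.48 (EFT2) on the log2 scale. Between 4+3N and 4N, where 0.114% of genes passed, none of the 9 did by edgeR or DESeq2, nor at an unadjusted p under 0.05, nor with the replicate block, where 0.608% of genes passed (0.418% higher). The values ran from −0.08 for PHO89 to 0.18 for PHO12 (SE 0.17). Here the copies rose by 1.59 to 1.80. In mRNA-seq of 4N and 4+3N against Nonrandom they rose by 0.90 (TEF1), 1.09 (TEF2), 1.17 (EFT1) and 1.00 (EFT2).

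In mRNA-seq none of the 9 passed between preparations. In 4N and 4+3N against Nonrandom 0.222% of 5415 genes passed in edgeR, and of the 9 none did by edgeR or DESeq2, with 2 at an unadjusted p under 0.05. With the replicate block 0.332% of genes passed and again none of the 9. PHO11 mRNA was at 7.42 and 7.72 CPM in Nonrandom against 12.1 to 12.5 CPM in the other 4 libraries, without overlap, with a log2 fold change of 0.68 (SE 0.23, edgeR adjusted p = 0.773) from 17 to 40 reads a library. PHO4 stood at 0.23 (SE 0.11, adjusted p = 1.00) and the other 7 between −0.12 and 0.19. Between 4+3N and 4N no gene at all passed by edgeR or DESeq2 (0%, with 132 genes at an unadjusted p under 0.05), and with the block 0.0554% did. None of the 9 was under 0.05 unadjusted.

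The low libraries were set against the standard ones of Nonrandom and 4+3N (8 libraries). Of 5174 genes 2.44% passed in edgeR (1.82% higher and 0.618% lower), and of the 9 none did by edgeR or DESeq2, with 2 at an unadjusted p under 0.05. SPL2 footprints were 81.4 and 85.5 CPM in Nonrandom low and 70.1 and 71.5 CPM in 4+3N low, against 102 and 108, and 92.7 and 95.2 CPM in the matching standard libraries. All 4 low libraries lay below all 4 standard ones. The log2 fold change was −0.28 (SE 0.08, edgeR adjusted p = 0.0897), and it passed with library totals (−0.37, adjusted p = 0.0290) and with the replicate block (−0.28, adjusted p = 0.0261). Same-numbered libraries correlated above 0.1 in 3 of the 6 pairs of groups here, so the block was not taken as a pairing.

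PHO3 moved the other way, with 184 and 222 CPM in Nonrandom low and 244 and 218 CPM in 4+3N low against 178 and 187, and 202 and 228 CPM. Those ranges overlapped, and the log2 fold change was 0.22 (SE 0.07, edgeR adjusted p = 0.125). Under the replicate block PHO3 passed, at 0.21 (edgeR adjusted p = 0.0265). PHO84 was at 0.01 (SE 0.06), with low libraries between 1931 and 2040 CPM. The remaining values were 0.19 for PHO4, 0.15 for PHO89, 0.12 for PHO5 and −0.06 for VTC3, none past the threshold.

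PHO12 and PHO11 are limited by depth in the low libraries. PHO12 had 1, 9, 5 and 16 reads there, which is 0.616, 3.37, 6.04 and 12.2 CPM, and PHO11 had 2, 2, 0 and 3 reads. The low libraries spanned more than the range of PHO12 in the standard ones (5.06 to 11.3 CPM), and for neither gene was a difference detectable at this depth. The copies TEF1, TEF2, EFT1 and EFT2 stood 5.27, 5.35, 5.12 and 5.20 higher in the low libraries on the log2 scale. PHO12 was at −0.54 (SE 0.32, edgeR adjusted p = 0.469) and PHO11 at −0.44 (SE 0.65, adjusted p = 0.807), neither past the threshold, and single low libraries moved both. PHO12 was at −1.45 without Nonrandom low replicate 2, −0.87 without 4+3N low replicate 2 and −0.29 without Nonrandom low replicate 1. PHO11 was at −3.51 without 4+3N low replicate 2, −0.22 without Nonrandom low replicate 2 and −0.10 without 4+3N low replicate 1. The change in low was compared between Nonrandom and 4+3N by an interaction term. Of all genes 0.232% passed (0.0193% with a higher and 0.213% with a lower change), and of the 9 none by edgeR or DESeq2, with PHO89 at an unadjusted p under 0.05 (0.50, SE 0.22, adjusted p = 0.922).

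DualLigation was compared with the standard profiling libraries and was not tested against the low ones. Set against Nonrandom, 4N and 4+3N (9 libraries, n = 3, 2, 2 and 2), 65.7% of 5300 genes passed in edgeR, 33.1% higher and 32.6% lower. PHO11 and PHO12 passed the filter on low counts only through the other 6 libraries and are left out of the count. Of the remaining 7 genes all passed, 6 lower and 1 higher. The spread was also larger, with a biological coefficient of variation of 21.2% in this fit against 6.44% in the fit without DualLigation. With library totals all genes moved by 0.67 and the calls went from 1753 higher and 1727 lower to 916 and 2918. The 7 directions were the same under both scales.

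PHO4 was the member that rose. Its footprints were 197, 259 and 281 CPM in the 3 DualLigation libraries against 66.8 to 79.6 CPM (median 73.5) in the other 6. The log2 fold change was 2.45 (SE 0.20, edgeR adjusted p = 1.98e-05), 5.47-fold, at the 95.3th percentile of all genes, and 1.75 with library totals. The groups did not overlap, and PHO4 in DualLigation also exceeded the mRNA-seq libraries (79.5 to 113 CPM), with a footprint level 2.44 times the mean mRNA level.

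PHO84 fell to 575, 500 and 361 CPM, from 2003 to 2166 CPM. Its log2 fold change was −1.47 (SE 0.13, edgeR adjusted p = 2.79e-05), which is 2.78-fold lower. VTC3 fell to 383, 241 and 144 CPM from 906 to 980 CPM, by 1.24 on the log2 scale (SE 0.21, adjusted p = 0.00105). Replicate 1 was the highest and replicate 3 the lowest for both, and no DualLigation library reached the others.

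PHO89 fell to 18.7, 8.68 and 9.75 CPM from 36.9 to 42.1 CPM, by 1.07 on the log2 scale (SE 0.18, edgeR adjusted p = 0.000845). SPL2 fell to 33.6, 37.5 and 49.5 CPM from 92.7 to 108 CPM, by 0.59 (SE 0.19, adjusted p = 0.0229). The SPL2 order among the replicates was the reverse of that of PHO84 and VTC3. Its call is the weakest of the 7. It was lost without DualLigation replicate 2 (−0.57, adjusted p = 0.0725) and without any 1 of 4N replicate 1, 4N replicate 2, Nonrandom replicate 2, 4+3N replicate 1 and 4+3N replicate 2 (adjusted p = 0.0501 to 0.0582), and the value moved to −0.38 without DualLigation replicate 1 (adjusted p = 0.0213).

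The phosphatases fell as well, and by unequal amounts. PHO5 was at 23.2, 10.9 and 6.99 CPM against 80.8 to 93.6 CPM, a fall by 2.09 on the log2 scale (SE 0.26, edgeR adjusted p = 0.000196). PHO3 was at 124, 87.5 and 63.0 CPM against 178 to 228 CPM, a fall by 0.50 (SE 0.14, adjusted p = 0.0112) that did not pass against Nonrandom alone (−0.34, adjusted p = 0.122). PHO5 took 9.99% to 15.7% of the reads of the pair in DualLigation and 29.2% to 32.4% in the other 6 libraries. The split of counted reads between the 2 neighbouring genes thus differed between DualLigation and these 6. The part of any reads that fit both genes was not tested.

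PHO12 had 2, 3 and 1 reads in the 3 DualLigation libraries (0.297, 0.223 and 0.0863 CPM) against 46 to 106 reads in each of the other 6. The pooled level was 42.6 times lower by the reads (exact 95% interval 19.4 to 117, counting error only), and no DualLigation library came near the others. PHO11 had 0 reads in all 3 against 2.01 ± 0.896 CPM (SD, n = 6), which is at least 6.51-fold lower when set against the mean floor of 0.309 CPM (3 counts per library). Of the copies named above, TEF2 rose by 2.53 and TEF1 by 1.14 in DualLigation, and EFT1 (−0.58) and EFT2 (−0.45) did not pass. The part of shared reads in these values was not tested.

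The footprint level in DualLigation divided by the mean of the 6 mRNA-seq libraries was 0.232 for PHO84 (0.166 to 0.287 over the 18 pairs of libraries), 0.0645 for PHO5, 0.262 for PHO3, 0.278 for PHO89, 0.475 for SPL2 and 0.218 for VTC3. In Nonrandom, 4N and 4+3N the same quotient was 0.996 to 1.04 for PHO84 and 0.407 to 0.419 for PHO5. No mRNA-seq group carries the DualLigation name, so these quotients set 2 kinds of library side by side and were not tested. PHO4 was the one member with a higher quotient in DualLigation, 2.44 against 0.665 to 0.816.

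**Figure D4:**
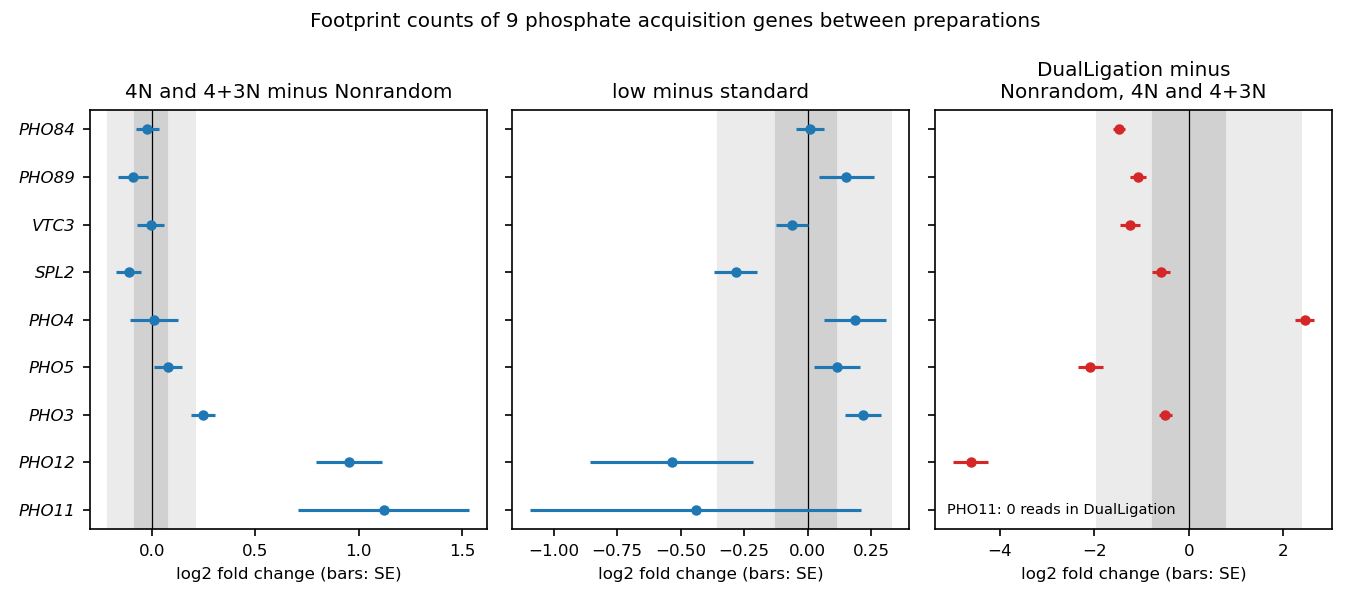
Log2 fold change of footprint counts (horizontal axes, TMM scale, a separate range for each panel, bars are standard errors) of the 9 genes in 4N and 4+3N against Nonrandom, low against standard, and DualLigation against Nonrandom, 4N and 4+3N. Red points passed an edgeR adjusted p of 0.05, blue points did not, and the grey bands hold the middle 50% and 90% of all genes. PHO4 at 2.45 is the one gene to the right in DualLigation, where PHO11 had no reads and is not drawn and PHO12 rests on 6 reads.

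The other genes of the pathway were read from a list of 30 that was put together with earlier results of these data known. In the standard libraries 12 of the 30 had a footprint to mRNA ratio above 0, 16 below and 2 did not pass (40.2% above and 44.5% below over all genes), with a median of −0.12 against −0.04 over all genes. With library totals the counts were 3, 22 and 5, where 956 of all 5523 genes were above and 3854 below. The list therefore spread around the genome's middle, and its members differed widely. PHM7, among the 30 at −2.93, had 18 footprint reads over the standard libraries and passed the filter on low counts only through mRNA-seq. Its value is not read as a result.

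The subunits of the VTC complex, to which VTC3 belongs, had ratios from low to high. VTC1, its small membrane subunit, had 744 to 918 CPM in footprints and 346 to 398 CPM in mRNA, and a log2 ratio of 1.67 (SE 0.05, edgeR adjusted p = 9.62e-16), the 98.2th percentile of all genes. It also had the highest footprint level of the 30 (2097 CPM/kb, rank 80 of 5754). VTC4, the polymerase subunit, was at 0.71 (SE 0.05) and VTC2, an alternative to VTC3 in the complex, at 0.48 (SE 0.05). VTC3 at 0.21 was below these 3, and VTC5, a regulatory subunit, was at −0.16 (SE 0.05). With library totals VTC1 was at 1.12 and still above 0, while VTC2 turned to −0.064 (adjusted p = 0.207).

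VIP1, an inositol pyrophosphate synthase, was also above 0, at 0.91 (SE 0.05). PHO80, the cyclin that holds Pho4 in check, had 5.21 to 7.50 CPM in footprints and 25.2 to 29.9 CPM in mRNA, a log2 ratio of −1.54 (SE 0.11, edgeR adjusted p = 1.69e-10). PHO87, a low-affinity transporter, stood at −1.78 (SE 0.06) and SYG1, a phosphate exporter homologue, at −1.49 (SE 0.06). The low-affinity transporter PHO87 and the high-affinity PHO84 were thus on opposite sides of the median gene. PHM7 and GIT1, a glycerophosphoinositol permease, were the least abundant of the list with PHO80, at 0 to 0.651 and 0.944 to 2.50 CPM in footprints. PHO88, an endoplasmic reticulum protein, and VTC4 followed VTC1 as the most abundant (1153 and 391 CPM/kb).

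In the low libraries the ratio was above 0 for 10 and below 0 for 14 of the 29 tested genes of the list (34.3% and 40.2% over all genes). Among the 29, GIT1 (11 reads in the low libraries) passed the filter on low counts only through mRNA-seq, and its value is not read as a result. With library totals the counts were 3 above, 23 below and 3 not past the threshold, where 730 of all 5385 genes were above and 3669 below. VTC1 (1.80), MIR1 (0.84, the mitochondrial phosphate carrier) and VIP1 (0.79) were above, and SYG1 (−1.38), PHO87 (−1.75) and the polyphosphatase PPN1 (−0.90) below. Set against the standard libraries, MIR1 was the 1 gene of the 29 that rose, with 307 to 370 CPM against 263 to 294 CPM (0.32, SE 0.07, edgeR adjusted p = 0.0209), where 1.82% of all genes were higher. That call was lost with library totals (0.23, adjusted p = 0.0588) and without Nonrandom low replicate 1, Nonrandom replicate 2, 4+3N low replicate 1 or 4+3N low replicate 2 (adjusted p = 0.0698 to 0.175). With the replicate block, PHO88 (−0.11), VTC1 (0.11) and MIR1 (0.15) passed in 4N and 4+3N against Nonrandom. Without it no gene of the list passed by edgeR, with 2 at an unadjusted p under 0.05, and in mRNA-seq none did, with 0 at an unadjusted p under 0.05.

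In DualLigation 6 of the 29 rose, 12 fell and 11 did not pass (33.1% higher and 32.6% lower over all genes), with a median of −0.21 against −0.05 over all genes. With library totals 5 rose, 18 fell and 6 did not pass, where 916 of all 5300 genes were higher and 2918 lower. GTR1, a small GTPase gene, rose from 29.4 to 31.9 CPM to 95.6, 65.1 and 62.2 CPM (1.92, SE 0.09, edgeR adjusted p = 3.16e-06). PHO87 rose by 1.62 (SE 0.12) and SYG1 by 1.16 (SE 0.11). PHM8, a nucleotide phosphatase, was at 1.63, 0.297 and 0.518 CPM against 15.8 to 18.7 CPM, from 21 reads in DualLigation. Its log2 fold change was −3.97 (SE 0.37). PHM8 and GIT1 (20 reads in DualLigation) passed the filter on low counts only through the other 6 libraries. Calls on these genes are not read as results, though the counts above include both among the genes tested. The kinase inhibitor PHO81 fell by 1.87 (SE 0.19) and VTC2 by 1.05 (SE 0.11). Within the VTC complex VTC1 (−1.24), VTC2 and VTC3 fell under both scales. VTC4 was at 672, 1077 and 1154 CPM against 788 to 911 CPM, with replicate 1 below all 6 of the others, and its log2 fold change of 0.91 (SE 0.22, edgeR adjusted p = 0.00705) did not pass with library totals (0.19, adjusted p = 0.358). VTC5 was at 38.0, 380 and 796 CPM against 62.3 to 74.4 CPM, with replicate 1 below and the other two far above.

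**Figure D5:**
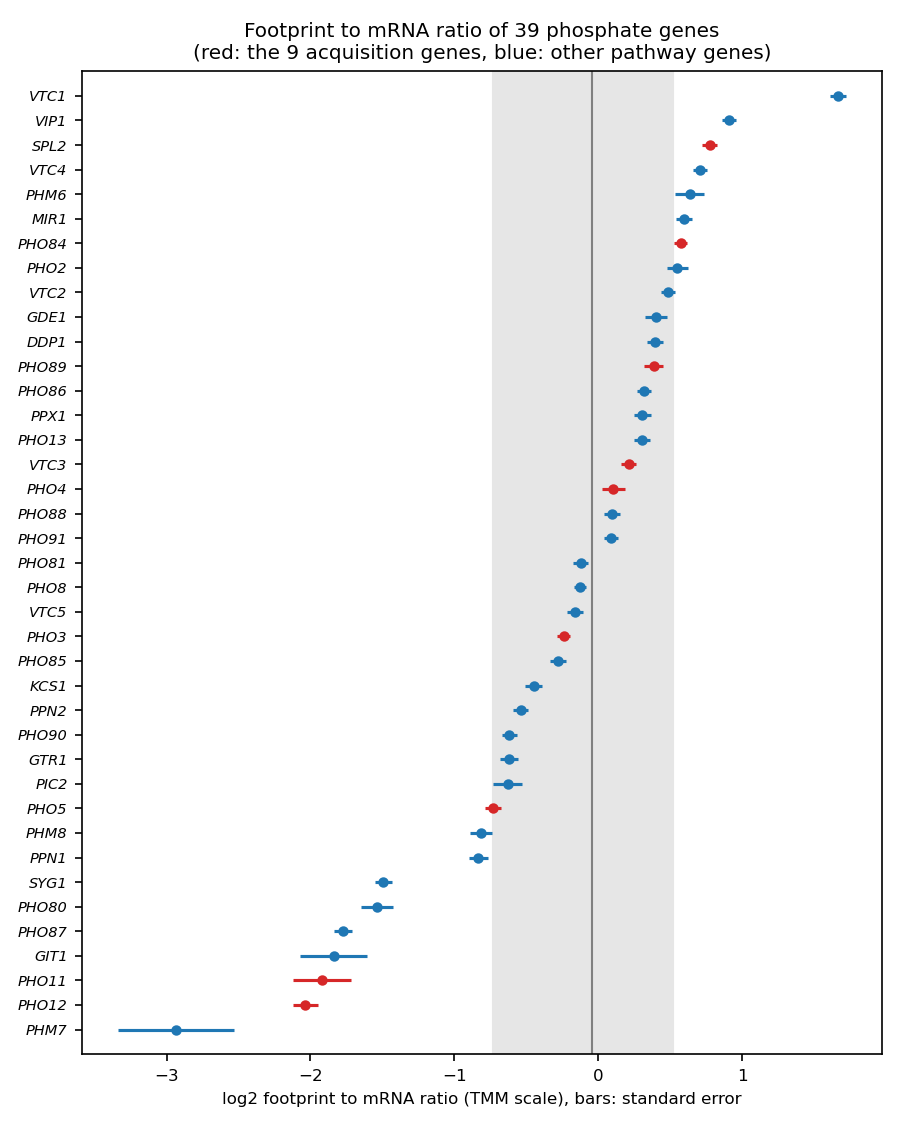
Log2 footprint to mRNA ratio (horizontal axis, TMM scale, bars are standard errors) of the 9 acquisition genes in red and the 30 other pathway genes in blue, ordered by value, from 12 libraries of Nonrandom, 4N and 4+3N. The grey band spans the quartiles of all genes and the grey line their median. VTC1 is at the top (1.67) and PHM7 at the bottom (−2.93), with PHO11 and PHO12 just above it. PHM7 passed the filter on low counts only through mRNA-seq.

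Over the 19 libraries, the genes whose log2(CPM + 1) ran most like that of each member were mostly outside the pathway. These likenesses describe the libraries, which share assay, depth and the separation of DualLigation, and were taken among 4251 genes. PHO84 ran closest to HEM15 (Pearson r = 0.993), PRE7 and RTN1. PHO5 ran closest to YNL035C (0.994), PRE10 and LCB1, and PHO3 closest to PPN2 (0.988), a polyphosphatase gene of the pathway list, SEC2 and SNQ2. VTC3 ran closest to RNR1 (0.992), PSA1 and CHO1, PHO89 to PDR5 (0.986), RSM19 and RPS10A, and SPL2 to MCA1 (0.958), ETR1 and SIC1. PHO4, the member with the opposite course in DualLigation, ran closest to UAF30 (0.977), NIT3 and MRX6, and its r with PHO84 was −0.920. PHO5 and PHO3, adjacent on the chromosome, had an r of 0.980 with each other.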

How the data were processed

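Footprints and mRNA of BY4741 yeast were counted per gene in 19 libraries. The authors deposited tables of whole-number read counts per gene. Bowtie 1.0.0, CASAVA 1.8 and the genome build sacCer3 are named in the submitters' processing notes. Strand, multiple alignments and the counting rule are not given in the sources used here, so reads shared by copies or by overlapping genes cannot be placed. For ribosome profiling Nonrandom replicate 1, 5559 genes stand in the deposited counts a second time with other values. The second list was used (Pearson r with replicate 2 across genes 0.997, against 0.959 for the first), so agreement within Nonrandom is no independent measure of its spread. Groups and replicate numbers came from the sample titles. These conflict in part with other labels. For 1 randomized profiling library titled replicate 2, the sample characteristics give replicate 1. Some file names give other preparation names than the titles. The titles were followed, so the groups and the replicate block rest on them.

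Genes not listed in a library were set to 0. Counts were filtered with filterByExpr, scaled by TMM and tested with edgeR 4.0.16 quasi-likelihood F tests (R 4.3.3), two-sided, with Benjamini-Hochberg adjustment over all genes tested and a threshold of 0.05. Each standard error was the size of the log2 fold change divided by the root of F. CPM per kilobase used RefSeq coding lengths of assembly R64 (5754 of 5758 identifiers matched, 96.5% of lengths a multiple of 3). Alternatives were DESeq2 1.42.0, its size factors, library totals, no filter, a replicate block, each library left out, PHO11 and PHO12 summed, and the first count list. The steps were tested on simulated data. Same-numbered libraries deviated together among Nonrandom, 4N and 4+3N (correlations 0.232 to 0.399 for footprints, 0.107 to 0.251 for mRNA), which comes from the data and not from the labels. In the fits that join footprints with mRNA, low or DualLigation libraries, some pairs of groups were at or under 0.1, and the numbers were not taken as pairs there.

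The 9 genes and the lists were chosen with earlier results of these data known. Named beside the 9 were up to 6 pathway genes per comparison that passed, by smallest p, the 3 most and 3 least abundant, and the 3 genes most like each member with a mean of at least 20 CPM. Other VTC genes, the pathway genes under the replicate block, and the copies TEF1, TEF2, EFT1 and EFT2, were named after their values were seen.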

Additional observations from a re-analysis of the deposited data

How the results depend on the processing

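Depth limits PHO11 and PHO12, with 110 and 452 footprint reads over the 6 standard libraries and 7 and 31 over the 4 low ones. The number of genes passing moved by over 1.5 times in 6 of the 10 comparisons. For 4N and 4+3N against Nonrandom it was 397 with the replicate block, 20 by DESeq2 and 2 with DualLigation in the fit, against 10. For 4+3N against 4N it was 32 with the block and 0 with DualLigation in the fit, against 6, and 3 to 8 leaving out a library (3 without 4N replicate 2). In mRNA-seq that contrast gave 3 with the block against 0. For low against standard it was 207 with library totals, 376 with the block (where 3 of 6 pairs of groups correlated above 0.1) and 28 with the first count list, against 126, and 49 to 166 leaving out a library. It was 73 without Nonrandom low replicate 1, 82 without Nonrandom low replicate 2, 49 without 4+3N low replicate 1 and 64 without 4+3N low replicate 2. The difference of these changes gave 51 with the block and 2 with the first list, against 12, and the ratio between preparations gave 0 with the first list, against 3. Other causes than the construction of each setting were not tested. With the block in low against standard, PHO3 (0.21, adjusted p = 0.0265) and SPL2 (−0.28, adjusted p = 0.0261) passed, and no other call on the 9 genes outside those given above changed with it.

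Directions of the 9 genes turned in the following settings. With library totals, the ratio of PHO89 (−0.16), PHO4 (−0.45) and VTC3 (−0.34) turned in the standard libraries and that of PHO84 (−0.071), PHO89 (−0.13), PHO4 (−0.27), SPL2 (−0.10) and VTC3 (−0.50) in the low ones, by construction of the shift. Values that never passed also crossed 0 with library totals: PHO4 in 4N and 4+3N against Nonrandom (−0.013), PHO3 (0.023) and PHO11 (0.025) in mRNA of 4+3N against 4N, PHO84 in low against standard (−0.078), VTC3 in its difference (−0.0032), and PHO89 (−0.013) and VTC3 (−0.017) in the ratio between preparations. PHO4 in 4N alone had a ratio of −0.043. With the first count list, PHO84 (0.65), SPL2 (0.27) and VTC3 (0.44) turned in the randomized comparison, PHO89 (−0.16) and SPL2 (0.090) in the ratio between preparations, VTC3 in low against standard (0.16), and PHO84 (−0.59) and VTC3 (−0.39) in its difference. Summed with PHO12, PHO11 turned in 4+3N against 4N (0.14 in footprints, 0.13 in mRNA) and in the low difference (0.80). With the first list the calls on the ratio of PHO84 (0.36, adjusted p = 0.308) and VTC3 (0.08, adjusted p = 0.715) and on PHO3 (−0.41, adjusted p = 0.0805) and SPL2 (−0.46, adjusted p = 0.135) in DualLigation were lost.

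Leaving out a library turned values that did not pass in either case. The ranges were −0.10 to 0.14 for PHO4 and −0.086 to 0.079 for VTC3 in the randomized comparison of footprints. In 4+3N against 4N they were −0.0016 to 0.064 for PHO5, −0.022 to 0.074 for PHO3, −0.46 to 0.49 for PHO11, −0.16 to 0.17 for PHO4 and −0.037 to 0.054 for VTC3. In mRNA they were −0.050 to 0.068 for PHO5 and −0.15 to 0.11 for VTC3 in the randomized comparison. In 4+3N against 4N they were −0.16 to 0.056 for PHO5, −0.038 to 0.015 for PHO3, −0.075 to 0.034 for PHO11, −0.067 to 0.11 for PHO89 and −0.053 to 0.097 for VTC3. In the ratio between preparations they were −0.013 to 0.081 for PHO89 and −0.12 to 0.15 for VTC3. In low against standard PHO84 ran from −0.012 to 0.032, and in its difference PHO3 ran from −0.10 to 0.10, PHO11 from −6.59 to 0.24, PHO4 from −0.34 to 0.17 and VTC3 from −0.039 to 0.13. A library left alone in its group is assumed to vary like the other groups. Of the values of named genes, pathway genes included, 755 in the other settings and 846 with a library left out kept their direction and side of the threshold.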

Other observations

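The first count list of ribosome profiling Nonrandom replicate 1, which was not used in the comparisons, holds 3520161 reads against 11656814 in the second. PHO84 was at 1382 CPM in it against 2126 CPM in the second list and 2166 CPM in replicate 2. PHO5 was at 170 CPM against 80.8 CPM, PHO4 at 174 CPM against 78.5 CPM, PHO89 at 118 CPM against 42.1 CPM and PHO3 at 294 CPM against 178 CPM. The genes with fewer reads were thus higher there and PHO84 lower, relative to both the second list and replicate 2. VTC3 stood at 1208 CPM against 980 CPM, SPL2 at 134 CPM against 102 CPM, PHO12 at 7.95 CPM against 5.06 CPM and PHO11 at 2.56 CPM against 0.858 CPM. What the first list was made from is not given in the sources used here.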
